A study of Mus musculus with 4 samples.

Results

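The interleukin-6 (IL-6) family of cytokines and receptors was examined as 10 genes, taken from a fixed list of names, among 56748 genes in the count table. The ligands were Il6, Lif, Osm and Il11, and the receptor chains other than gp130 were Il6ra, Lifr, Osmr and Il11ra1. The shared signaling chain was Il6st (gp130), and the feedback inhibitor was Socs3. All 10 had enough reads to be tested. By the positions in the table, which the processing notes of the submitters name mm39, the genes of Osm (chr11:4186420-4191026) and Lif (chr11:4207557-4222514) lie near each other, as do those of Osmr (chr15:6843058-6904450) and Lifr (chr15:7120095-7226970), and Il6 lies at chr5:30218112-30224979. Bulk RNA sequencing had been performed on lungs bearing 4T1 metastases from 2 saline and 2 ADC/cmLumiOpto samples. Both groups were female BALB/cJ mice, 7 weeks old when 4T1-FLuc cells, a luciferase-expressing mouse triple-negative breast cancer (TNBC) line, were given through the tail vein, so both carried metastases and the tumor cells came from 1 cell line. The controls received saline, which the labels call PBS. The treated mice received an antibody-drug conjugate (ADC) of an anti-CD276 antibody with the microtubule inhibitor DM1, at 16 mg/kg per the labels, together with cmLumiOpto, a gene therapy in which a light-gated channel depolarizes the mitochondria of cancer cells, with harvest after 3 weeks of treatment. The methods of the study give a lower ADC dose, and the labels add the abbreviation Olap to the treatment without explaining it. The labels describe tumor cells taken from the lung and the methods describe dissociated lung tissue. Markers of the lung epithelium and of leukocytes were present in every sample, so the samples held more than tumor cells. In such bulk samples, fewer cells of a type and less RNA per cell cannot be told apart.

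IL-6 family cytokines are released by tumor cells, fibroblasts and leukocytes and are known for driving inflammation, the acute-phase response and the survival of tumor cells. IL-6, LIF and IL-11 first meet their own receptor chains, IL6R, LIFR and IL11RA, and the complex then engages gp130, whereas oncostatin M binds gp130 first and then recruits OSMR or LIFR. The activated complex turns on JAK kinases and the transcription factor STAT3, and STAT3 induces SOCS3, which binds gp130 and the JAK kinases and shuts the signal off.

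Total counts lay between 15263375 and 19675436 per sample. The floor was set at 3 counts, or 0.152 to 0.197 CPM, and covers counting error alone. CPM, counts scaled to the TMM-normalized library, is the unit used unless RPKM is named. With 2 samples per group an exact permutation test of a single gene cannot give a two-sided p below 0.333, so the tests rest on edgeR's quasi-likelihood test across 15320 genes. In that test 0 genes had a Benjamini-Hochberg adjusted p under 0.05, which is 0% of those tested, and the smallest adjusted p was 0.116. Of the same genes, 3553 had an unadjusted p under 0.05, while the edgeR exact test called 1143 genes (7.46%) and DESeq2 called 1353 (8.83%). Among the marker genes of other cell types, fibroblast markers were lower in both treated samples in 6 of 7 genes, beside 28.8% of all tested genes. Lung epithelial markers were higher in both in 6 of 6, beside 28.1% of all tested genes. The neutrophil markers summed to 8501 CPM in ADC/cmLumiOpto sample 2 and to between 596 and 1378 CPM in the other 3 samples, so this library stood apart. The methods of the study call the samples of a group biological samples, and give more of them per group than the 2 analysed here. The p-values rest on the spread between these 2 samples of each group. The quasi-likelihood test estimates that spread for each gene partly from the other tested genes.

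Of the 10 members, 0 passed the adjusted threshold in the quasi-likelihood test, 0 in the exact test and 0 in DESeq2, and 2 had an unadjusted p under 0.05. These were Lifr and Il11ra1, both higher after ADC/cmLumiOpto, against a background of 11.0% of tested genes that were higher at that p. No member (0) was lower at that p, against 12.2% of tested genes. By the values alone, both treated samples lay above both saline samples in 2 members (Lifr and Il11ra1; 28.1% of tested genes did so) and below them in 4 (Il6, Lif, Osmr and Il6st; 28.8% did so), and the groups overlapped in the other 4. The median log2 fold change of the members was −0.13, beside 0.03 over all tested genes. Beside these background shares, the counts do not set the family apart from the other genes.

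**Figure D1:**
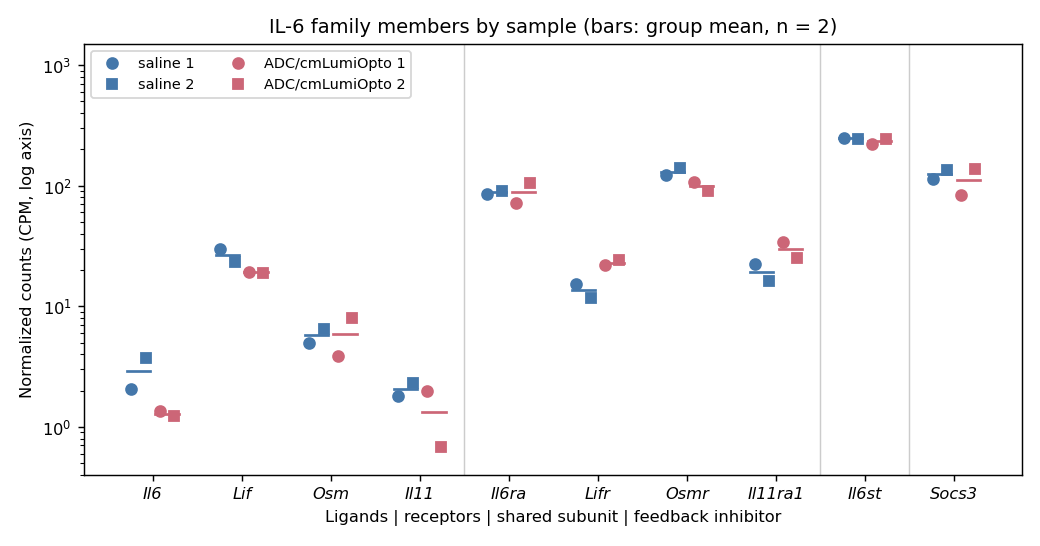
Normalized level of each member in CPM (log axis) in every sample, saline in blue and ADC/cmLumiOpto in red, with a circle for sample 1, a square for sample 2 and a bar for each group mean. Lifr and Il11ra1 lie higher in both treated samples, Il6, Lif, Osmr and Il6st lie lower in both, and Osm, Il11, Il6ra and Socs3 overlap.

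The stretches just before the transcription start are shown for the prototype ligand Il6, for Lif, which had the highest level among the ligands, and for the feedback gene Socs3, because they hold the letters that factors upstream and downstream of the receptors are known to read. Of the 10 members, 9 were found in the RefSeq promoter table of GRCm38.p6, with 12 promoters of 300 bases in all. The sequences are the 250 bases before the start, printed 5′ to 3′ on the strand of the gene, for Il6 at chr5:30012864-30013113 (plus strand), for Lif at chr11:4257318-4257567 (plus strand) and for Socs3 at chr11:117969367-117969616 (minus strand). Capitals mark matches to 4 patterns searched on both strands, the STAT pattern TTCNNNGAA, the AP-1 pattern TGANTCA, the C/EBP pattern TTGCNNAA and an NF-kB pattern of GGG, any 2 bases and TTTCC.
Il6: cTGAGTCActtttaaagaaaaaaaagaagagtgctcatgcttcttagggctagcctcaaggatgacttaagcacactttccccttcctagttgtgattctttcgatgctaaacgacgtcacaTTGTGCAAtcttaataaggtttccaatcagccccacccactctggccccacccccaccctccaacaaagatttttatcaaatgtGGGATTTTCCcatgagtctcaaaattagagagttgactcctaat
Lif: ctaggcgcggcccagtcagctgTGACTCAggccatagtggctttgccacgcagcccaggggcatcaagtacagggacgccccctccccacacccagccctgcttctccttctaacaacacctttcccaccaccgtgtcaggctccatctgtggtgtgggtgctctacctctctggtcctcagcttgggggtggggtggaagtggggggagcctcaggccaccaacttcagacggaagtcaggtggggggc
Socs3: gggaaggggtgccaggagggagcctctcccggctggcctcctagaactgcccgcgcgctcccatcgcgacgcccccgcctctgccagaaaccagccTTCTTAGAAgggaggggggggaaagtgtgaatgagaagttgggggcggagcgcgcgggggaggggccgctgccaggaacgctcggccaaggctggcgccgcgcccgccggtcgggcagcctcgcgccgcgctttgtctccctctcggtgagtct
The Il6 stretch held an AP-1 match at positions −249 to −243 from the start, a C/EBP match at −128 to −121, which reads as the pattern on the opposite strand, and an NF-kB match at −44 to −35. The Lif stretch held an AP-1 match at −228 to −222, and the Socs3 stretch held a STAT match at −154 to −146. Among 32851 promoters of the same length, 8.3% held the STAT pattern, 7.81% the AP-1 pattern, 10.8% the C/EBP pattern and 1.63% the NF-kB pattern. An AP-1 match was also present in 1 promoter of Il11 and in that of Osmr, and the promoters of Il6ra, Lifr, Il11ra1 and Il6st held none of these letters in the window. A match is a run of letters and was not tested as a binding site.

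Among the ligands, Il6 and Lif were lower in both treated samples, and Osm and Il11 were not separated by group. Il6, the founding member of the family and an inducer of the acute-phase response, had few reads, 33 and 55 with saline and 24 and 25 with ADC/cmLumiOpto. This corresponded to 2.06 and 3.71 CPM with saline and 1.36 and 1.22 CPM with ADC/cmLumiOpto. The highest value was in saline sample 2, the treated samples were close to each other, and the groups did not overlap. The log2 fold change was −1.16 (SE 0.50, n = 2 per group, 95% interval −2.36 to 0.05; adjusted p = 0.228, edgeR's quasi-likelihood test). It was −0.66 without saline sample 2 and −1.52 without saline sample 1, so saline sample 2 carried much of its size.

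Lif, leukemia inhibitory factor, known for its role in stem cell self-renewal and in tumor-stroma signaling, was at 30.1 and 23.2 CPM with saline and at 19.4 and 18.9 CPM with ADC/cmLumiOpto. Both treated values were below both saline values, and saline sample 1 was the highest. Its log2 fold change was −0.48 (SE 0.21, n = 2 per group, interval −0.99 to 0.04; adjusted p = 0.241, edgeR's quasi-likelihood test), and omitting single samples gave −0.64 to −0.28, the latter without saline sample 1.

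Osm encodes oncostatin M, a cytokine made mainly by activated neutrophils, macrophages and T cells. It was measured at 5.0 and 6.47 CPM with saline and at 3.85 and 7.95 CPM with ADC/cmLumiOpto. The treated samples were the lowest and the highest of the 4, and the fold change on the log2 scale was 0.04 (SE 0.43, n = 2 per group, interval −1.0 to 1.09; adjusted p = 0.963, edgeR's quasi-likelihood test). The high sample was the library with 8501 CPM of neutrophil markers. Without it the log2 fold change of Osm was −0.57, and without the other treated sample it was 0.48. The part of the neutrophil signal in the level of Osm was not tested.

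Il11, interleukin-11, is a ligand known for fibrosis and for bone metastasis in breast cancer. It had 1.81 and 2.29 CPM with saline, and 1.98 and 0.683 CPM with ADC/cmLumiOpto. ADC/cmLumiOpto sample 2, with 14 reads, was the only low one, and the log2 fold change of −0.63 (SE 0.62, n = 2 per group; adjusted p = 0.574, edgeR's quasi-likelihood test) was −0.05 without it and −1.57 without ADC/cmLumiOpto sample 1.

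The fibroblast markers, which include the collagen genes, summed to 5151 and 3544 CPM with saline and to 1767 and 1459 CPM with ADC/cmLumiOpto. They were thus lower in both treated samples, as were Il6, Lif, Osmr and Il6st. Among the saline samples, the fibroblast sum, Lif and, by a small margin, Il6st were higher in sample 1, whereas Il6 and Osmr were higher in sample 2. Among the treated samples, that sum, Il6, Lif and Osmr were higher in sample 1, and Il6st was higher in sample 2. All 7 fibroblast markers were detected in every sample, and their part in the lower values of these genes was not tested.

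Per kilobase of gene length (RPKM), Lif was the most abundant ligand in every sample. The summed RPKM of the 4 ligands was 10.85 and 10.81 with saline and 7.67 and 8.68 with ADC/cmLumiOpto, lower in both treated samples. Lif made up 63.8% and 49.3% of that sum with saline and 58.1% and 50.1% with ADC/cmLumiOpto, so its share overlapped between the groups. Il6 made up 7.83% and 14.1% with saline and 7.31% and 5.79% with ADC/cmLumiOpto, and its share was lower in both treated samples. The share of Osm ranged from 20.3% to 40.3% and was highest in ADC/cmLumiOpto sample 2. Shares of a sum are tied to each other and were not tested.

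Among the receptor chains, Lifr and Il11ra1 were higher, Osmr was lower, and Il6ra overlapped between the groups. Lifr, the chain for LIF that also serves oncostatin M and ciliary neurotrophic factor, was at 15.4 and 11.7 CPM with saline and at 21.8 and 24.0 CPM with ADC/cmLumiOpto. The groups did not overlap, and the means were 13.6 ± 2.63 and 22.9 ± 1.57 CPM (SD, n = 2 each). The log2 fold change was 0.75 (SE 0.24, interval 0.19 to 1.32), a fold of 1.69. Its adjusted p was 0.146 (edgeR's quasi-likelihood test; unadjusted 0.0167). Over the alternative settings its adjusted p lay between 0.0729 and 0.518 and its sign stayed the same in 13 of 13. Leaving out each sample gave values between 0.59 and 0.97.

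Il11ra1, the specific chain for IL-11, was at 22.4 and 16.1 CPM with saline and at 34.1 and 25.1 CPM with ADC/cmLumiOpto. The lower treated sample lay above the higher saline sample, and the log2 fold change was 0.62 (SE 0.26, n = 2 per group), a fold of 1.53. Its adjusted p was 0.215 (edgeR's quasi-likelihood test; unadjusted 0.0499). Without single samples it lay between 0.39, without ADC/cmLumiOpto sample 1, and 0.88. The span listed for this gene overlaps 6 other genes, among them Dctn3 on the opposite strand and Galt on the same strand. Dctn3 had more reads than Il11ra1 in every sample. Whether the counting used strand is not given in the sources used here, and the near-identical copy Il11ra2 had between 0 and 1 reads per sample, so the split of reads at this locus is uncertain.

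Osmr, a receptor chain for oncostatin M, was at 122 and 140 CPM with saline and at 108 and 90.5 CPM with ADC/cmLumiOpto. Both treated samples were below both saline samples, and the log2 fold change was −0.41 (SE 0.18, n = 2 per group, interval −0.83 to 0.02; adjusted p = 0.231, edgeR's quasi-likelihood test). Across genes the log2 fold change moved with gene length (Spearman rho −0.34 over genes, which are not independent replicates), and with that trend removed Osmr came to −0.09 and Lifr to 1.03.

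Il6ra, the IL-6-specific chain, known from hepatocytes and some leukocytes, was at 86.2 and 90.0 CPM with saline and at 72.2 and 105 CPM with ADC/cmLumiOpto. The treated samples were again the lowest and the highest, in the same order as for Osm, and the log2 fold change was 0.01 (SE 0.22, n = 2 per group, interval −0.51 to 0.53; adjusted p = 0.984, edgeR's quasi-likelihood test). It was −0.29 without ADC/cmLumiOpto sample 2 and 0.26 without sample 1.

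The lung epithelial markers summed to 2607 and 390 CPM with saline and to 11403 and 7504 CPM with ADC/cmLumiOpto, and the endothelial markers to 531 and 420 CPM with saline and to 557 and 832 CPM with ADC/cmLumiOpto. Both were higher in the samples in which Lifr and Il11ra1 were higher, and both were lowest in saline sample 2, as were Lifr and Il11ra1. Within the treated group, the lung epithelial sum and Il11ra1 were higher in sample 1, and the endothelial sum and Lifr in sample 2. By gene, 5 of 7 endothelial markers were higher in both treated samples, beside 28.1% of all tested genes. The sum of leukocyte markers was also higher in both treated samples (807 and 516 CPM with saline, 1019 and 1369 CPM with ADC/cmLumiOpto). That of T and NK cell markers was 40.3 and 16.4 CPM with saline and 95.6 and 40.5 CPM with ADC/cmLumiOpto, so the groups nearly met. Both sums were lowest in saline sample 2. Of these genes, 5 of 6 leukocyte markers and 2 of 6 T and NK cell markers were higher in both treated samples, beside 28.1% of all tested genes. The part of these markers in the levels of Lifr and Il11ra1 was not tested. The tumor and other epithelial markers summed to 3001 and 3353 CPM with saline and to 2955 and 2873 CPM with ADC/cmLumiOpto. That sum was lower in both treated samples by a small margin. Of the 7 genes, 3 were lower in both and 2 higher, beside 28.8% and 28.1% of all tested genes.

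**Figure D2:**
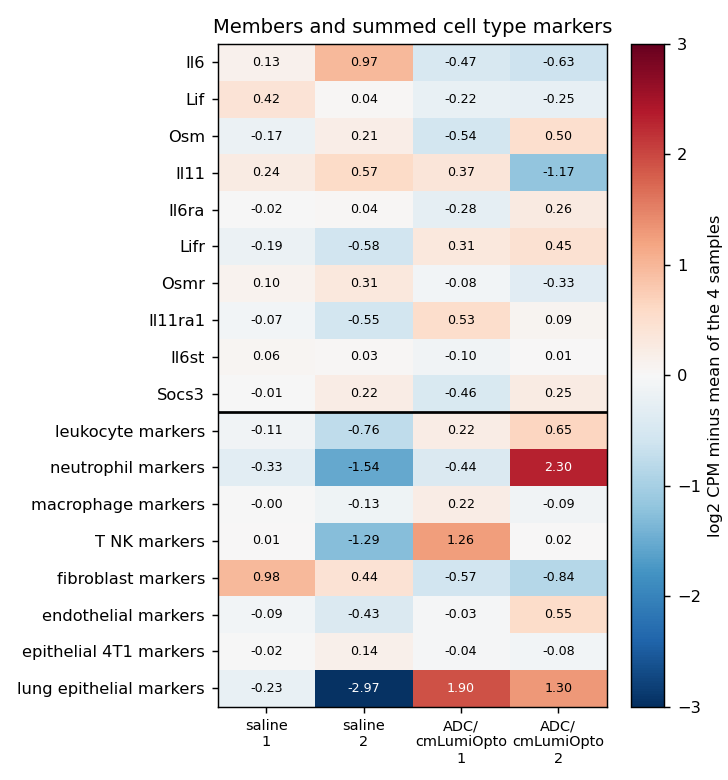
Log2 CPM of each member and of the summed markers of each cell type, relative to the mean of the 4 samples, with 1 column per sample. Neutrophil markers are highest in ADC/cmLumiOpto sample 2, where Osm, Il6ra and Socs3 are also highest. Fibroblast markers are lower in both treated samples, as are Il6, Lif, Osmr and Il6st.

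The shared chain Il6st, gp130, through which IL-6, LIF, oncostatin M and IL-11 all signal, was measured at 250 and 246 CPM with saline and at 223 and 243 CPM with ADC/cmLumiOpto. Both treated samples were lower by a small margin, and the log2 fold change was −0.09 (SE 0.15, n = 2 per group, interval −0.46 to 0.28; adjusted p = 0.756, edgeR's quasi-likelihood test). With the gene length trend removed it was 0.19, so no direction can be given. Socs3 had 114 and 135 CPM with saline and 84.0 and 138 CPM with ADC/cmLumiOpto, with the treated samples at the ends of the range. Its log2 fold change was −0.17 (SE 0.26, n = 2 per group, interval −0.79 to 0.45; adjusted p = 0.727, edgeR's quasi-likelihood test), and it was −0.57 without ADC/cmLumiOpto sample 2 and 0.16 without sample 1.

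**Figure D3:**
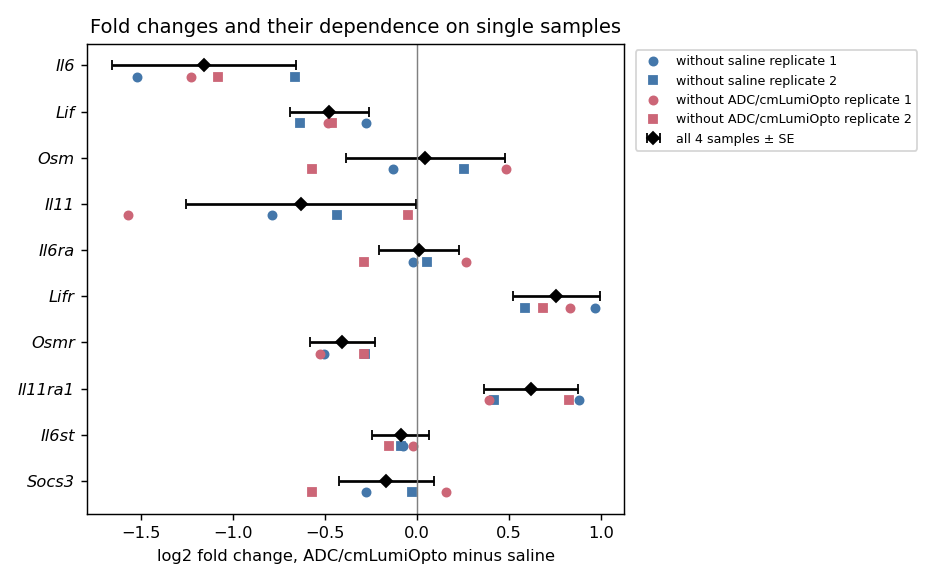
Log2 fold change (ADC/cmLumiOpto minus saline) of each member from all 4 samples (diamond, bar ± SE) and with 1 sample left out (circles and squares). Lifr and Il11ra1 lie above 0 in each fit shown, Il6, Lif, Il11, Osmr and Il6st lie below 0, and Osm, Il6ra and Socs3 fall on both sides of 0.

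The receptor balance was compared within each sample, per length. The 4 receptor chains other than gp130 summed to 26.5 and 26.7 RPKM with saline and to 26.9 and 27.5 RPKM with ADC/cmLumiOpto. The treated samples were thus slightly higher. The makeup of the sum differed more. The ratio of Osmr to Lifr was 7.03 and 10.7 with saline and 4.39 and 3.35 with ADC/cmLumiOpto, lower in both treated samples. The ratio of Lifr to Il6st was 0.0636 and 0.0492 with saline and 0.101 and 0.102 with ADC/cmLumiOpto, higher in both.

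These ratios combine values already given and do not add an independent test. The ratio of Il11ra1 to Il6st was also higher in both treated samples, at 0.379 and 0.257 against 0.223 and 0.163. The ratio of Osmr to Il6st was lower, at 0.441 and 0.342 against 0.447 and 0.524, with a gap between the groups that is small beside the spread within them. The ratio of Socs3 to Il6st overlapped, at 1.44 and 2.18 against 1.76 and 2.11.

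In order of RPKM, the saline samples had Socs3 first (mean 43.1), then Il6st (22.3), Osmr (10.8), Il6ra (10.2), Lif (6.13), Il11ra1 (4.31), Osm (2.52), Lifr (1.26), Il6 (1.19) and Il11 (0.986). Osmr and Il6ra overlapped in that order, as did Lifr with Il6 and Il6 with Il11. In the treated samples Socs3 (38.4) and Il6st (21) were again first, followed by Il6ra (10.3), Osmr (8.18), Il11ra1 (6.62), Lif (4.40), Osm (2.60), Lifr (2.13), Il11 (0.641) and Il6 (0.531). There Il6ra, Osmr and Il11ra1 overlapped as neighbors, as did Osm with Lifr and Il11 with Il6. Il6 was thus among the 3 lowest of the family in every sample, and Lifr stood apart from Il6 with ADC/cmLumiOpto but not with saline.

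**Figure D4:**
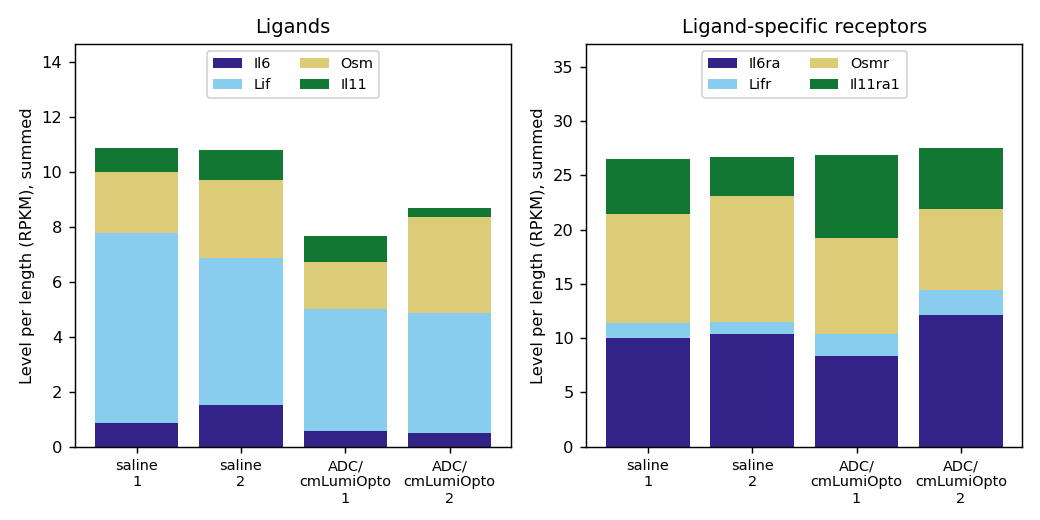
Length-normalized levels (RPKM) of the 4 ligands and the 4 receptor chains other than gp130, stacked for each sample. The ligand stacks are lower in both treated samples, and the receptor stacks are of like height with more Lifr and Il11ra1 and less Osmr.

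The other genes of the pathway were taken from lists written by hand, 57 genes in all, of which 51 were tested. In edgeR's quasi-likelihood test 0 of them had an adjusted p under 0.05, 9 were higher at an unadjusted p under 0.05 and 4 were lower, beside 11.0% and 12.2% of all tested genes. The median log2 fold change was −0.02, beside 0.03 over all tested genes. The exact test called 5 of the 51, Hp, Cebpd, Icam1, Ccnd1 and Sos1, beside 7.46% of all tested genes. DESeq2 called these and Ptpn6, beside 8.83% of all tested genes. The levels below are therefore given as values.

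Of 7 other family ligands, 3 were tested and 0 passed at an unadjusted p under 0.05, beside 11.0% higher and 12.2% lower over all tested genes. Ebi3, a subunit of IL-27 and IL-35, had a log2 fold change of 1.40 (SE 0.68), Clcf1, a ligand of the CNTF receptor, −0.45 (SE 0.27), and Ctf1, cardiotrophin-1, −0.08 (SE 0.38). Single samples moved these values: Ebi3 was 0.68 without ADC/cmLumiOpto sample 2, 0.83 without saline sample 2 and 2.43 without saline sample 1, and Clcf1 was −0.09 without saline sample 2 and −0.73 without saline sample 1. Il31 had 0 reads in every sample, and Cntf, Ctf2 and Il27 had between 0 and 10. Of 5 other receptor chains, 3 were tested, and Il27ra, the IL-27 receptor of lymphocytes, was at 1.75 and 0.944 CPM with saline and at 5.55 and 3.22 CPM with ADC/cmLumiOpto. It was higher in both treated samples, with a log2 fold change of 1.69 (SE 0.52; adjusted p = 0.144, edgeR's quasi-likelihood test), beside leukocyte markers of 807 and 516 CPM with saline and 1019 and 1369 CPM with ADC/cmLumiOpto, whose part was not tested. Cntfr (−1.61, SE 0.87) overlapped between the groups and was −0.66 without saline sample 1, −0.90 without ADC/cmLumiOpto sample 1 and −3.15 without ADC/cmLumiOpto sample 2. Il31ra had 0 reads in every sample.

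The transducers, the JAK kinases, STAT factors and adaptors of the RAS branch, were all tested. Of these 13, 8 were lower in both treated samples and 2 were higher in both, beside 28.8% and 28.1% of all tested genes. Their median log2 fold change was −0.32, and 3 were lower and 1 higher at an unadjusted p under 0.05, beside 12.2% and 11.0% of all tested genes. Across genes the log2 fold change fell with gene length (Spearman rho −0.34). These 13 genes ran from 2916 bases (Grb2) to 10594 bases (Sos1), and the median of the list with that trend removed was not computed. Stat3, the main transcription factor of the family, was at 320 and 351 CPM with saline and at 203 and 273 CPM with ADC/cmLumiOpto. Both treated samples were below both saline samples, with a log2 fold change of −0.50 (SE 0.19; adjusted p = 0.196, edgeR's quasi-likelihood test). It was −0.29 without ADC/cmLumiOpto sample 1 and −0.26 with the gene length trend removed. Sos1, a guanine nucleotide exchange factor for RAS, was at 57.0 ± 8.25 CPM with saline and 34.8 ± 1.90 CPM with ADC/cmLumiOpto (SD, n = 2 each), a log2 fold change of −0.71 (SE 0.18; adjusted p = 0.123, edgeR's quasi-likelihood test), which was −0.44 with the length trend removed. Tyk2, a JAK kinase that also serves the interferon and IL-12 receptors, was on the other side, at 24.1 ± 0.320 CPM and 35.9 ± 3.68 CPM, a log2 fold change of 0.58 (SE 0.18; adjusted p = 0.146 in the same test). With the length trend removed Tyk2 came to 0.73.

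Of 8 negative regulators besides Socs3, 1 was higher and 0 were lower at an unadjusted p under 0.05, beside 11.0% and 12.2% of all tested genes. The higher one was Ptpn6, which encodes the phosphatase SHP-1 of blood cells, at 72.9 ± 11.0 CPM with saline and 119 ± 27.9 CPM with ADC/cmLumiOpto (SD, n = 2 each; adjusted p = 0.147, edgeR's quasi-likelihood test). Its log2 fold change of 0.71 was 0.44 without ADC/cmLumiOpto sample 2. The leukocyte markers given above were higher in both treated samples in 5 of 6 genes, beside 28.1% of all tested genes. Their part in the level of Ptpn6 was not tested. Pias1 and Pias3, inhibitors of STAT factors, had log2 fold changes of −0.28 (SE 0.16) and −0.21 (SE 0.19). Pias1 was −0.13 with the length trend removed, and Pias3 was −0.43 without ADC/cmLumiOpto sample 2 and near 0 (−0.0056) without sample 1. Of the 4 genes of receptor shedding, 0 passed at an unadjusted p under 0.05, beside the same shares of all tested genes. Adam10, a protease that can release IL6R from the cell surface, was at 369 ± 33.4 CPM with saline and 293 ± 26.1 CPM with ADC/cmLumiOpto, while Adam17 (−0.16, SE 0.18) and its regulator Rhbdf2 (0.10, SE 0.25) overlapped between the groups.

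The list of 20 genes known to respond to STAT3 was not of one direction, with 6 higher and 1 lower at an unadjusted p under 0.05, beside 11.0% and 12.2% of all tested genes, and a median log2 fold change of 0.16. Hp, the acute-phase protein haptoglobin, was at 123 and 53.0 CPM with saline and at 315 and 480 CPM with ADC/cmLumiOpto, a log2 fold change of 2.18 (SE 0.42; adjusted p = 0.116, edgeR's quasi-likelihood test). Cebpd, a transcription factor of the acute phase, was at 20.9 ± 6.27 CPM and 55.9 ± 18.5 CPM, and Ccnd1, the cell cycle gene cyclin D1, was at 1511 ± 196 CPM and 877 ± 37.1 CPM (SD, n = 2 each). Hp and Cebpd were thus higher and Ccnd1 lower in both treated samples, with adjusted p = 0.116 each in edgeR's quasi-likelihood test. Hp is also expressed by neutrophils and lung cells, and the part of the cell types above in its level was not tested.

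**Figure D5:**
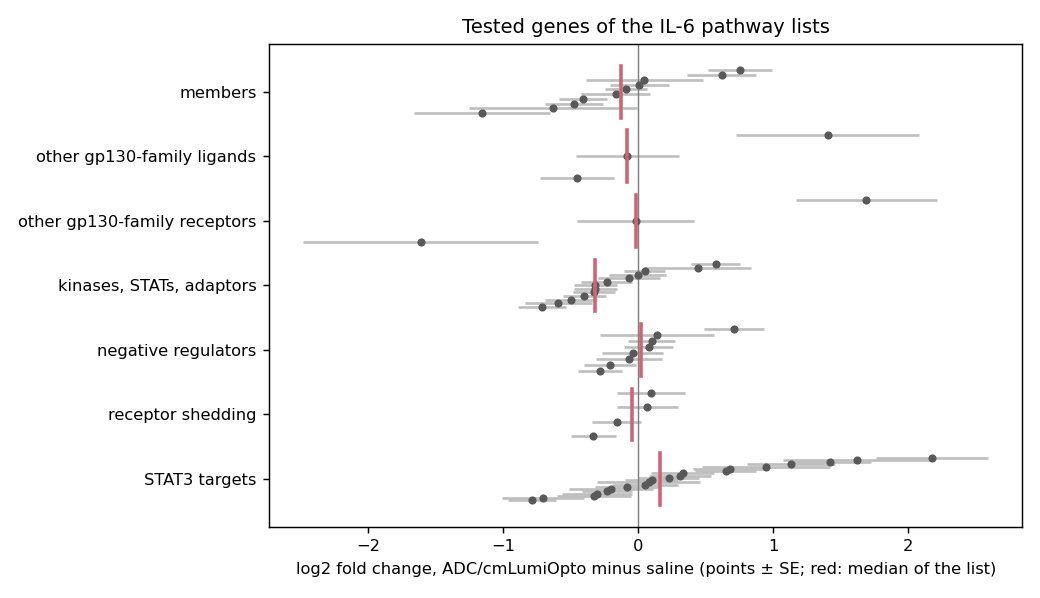
Log2 fold change (ADC/cmLumiOpto minus saline) of each tested gene in the pathway lists and of the members (points, bars ± SE), with 1 row per list and a red bar at the median. The transducers lie mostly below 0 (median −0.32) and the genes known to respond to STAT3 spread on both sides (median 0.16). The gene length trend was not removed from these values.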

How the data were processed

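The authors deposited raw counts, whole numbers of reads per gene, for 2 saline and 2 ADC/cmLumiOpto samples, from poly-T-selected RNA sequenced on an Illumina HiSeq platform. The submitters' processing notes name HISAT2 and mm39, whereas the methods of the study name GRCm38. The read counter is not given in the sources used here. Positions in the table equaled those of GRCm38 for 1472 of 52073 shared identifiers and for 1 of the 10 members, so matching used identifiers, and positions from the table are given as listed. Promoter positions and sequences are from RefSeq for GRCm38.p6.

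Samples were grouped by their titles. The fits used edgeR 4.0.16 under R 4.3.3. The filter was filterByExpr (minimum count 10, minimum total 15), leaving 15320 of 56748 genes, and 31185 genes had no read in any sample. Normalization was by TMM, and the test was glmQLFTest after glmQLFit, with a threshold of 0.05 on the Benjamini-Hochberg adjusted p. The prior count for fold changes was 0.125. The SE is the absolute log2 fold change divided by the square root of F. Total counts of 15263375 to 19675436 per sample set the precision.

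The alternatives were DESeq2 1.42.0, the edgeR exact test, other normalizations and filters, protein-coding genes only, a replicate block, removal of a gene length trend (lowess span 0.3), and each sample left out in turn. The procedure was tested on simulated data. The named genes were all members and, of each pathway list, the 3 tested genes with the smallest p, apart from 1 that is not reported here. Genes outside this rule that are named (Icam1, Il31, Il31ra, Cntf, Ctf2, Il27, Il11ra2, Dctn3 and Galt) were chosen after their values were seen. The members and lists were chosen with earlier results of these data known. A protein table was not used here.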

Additional observations from a re-analysis of the deposited data

How the results depend on the processing

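The count of members called stayed at 0 under all 13 alternatives. The count of genes called was 0 in the quasi-likelihood test, 1353 with DESeq2 (579 higher and 774 lower), 1143 with the exact test, 2259 without a filter on low counts, and between 0 and 206 with 1 sample left out, with 206 without saline sample 1. The count of pathway genes called was 6 with DESeq2 and 5 with the exact test, beside 8.83% and 7.46% of all tested genes. It was 12 without a filter, where 2259 of 25563 genes were called. With the replicate block 607 genes and 3 pathway genes (Hp, Cebpd and Icam1) were called, and Osm came to −0.030 and Il6ra to −0.015 on the log2 scale. Same-numbered samples deviated together with a correlation of 0.0985 over genes in 2 pairs, and nothing says that the numbers pair the mice. With the gene length trend removed, Osm was −0.13, Il6st 0.19 and Adam17 0.011. Upper-quartile factors, which moved the median of all genes to 0.11, gave Ctf1 0.00034. With 1 sample left out, the log2 fold changes lay between −0.57 and 0.48 for Osm, −0.29 and 0.26 for Il6ra, −0.57 and 0.16 for Socs3, −0.35 and 0.27 for Ctf1, −0.31 and 0.028 for Adam17, and −0.17 and 0.38 for Rhbdf2. The cause of these shifts was not tested. With 1 sample in a group, that sample was assumed to vary like the other group. Of the alternatives for named genes, 316 kept direction and side of the threshold, 16 changed sign and 18 newly passed it. At 2 samples per group, genes with few reads (Il6, Il11) have wide intervals.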
